A study of Mus musculus with 6 samples.

Results

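The renin-angiotensin system genes described here are 8 rows of a table of 13203 genes, picked by symbol: Agt, Ren1, Ace, Enpep, Agtr1a, Agtr2, Atp6ap2 and Akr1b7. All 8 symbols were found, 1 row each, and all 8 were above the low-value filter. RNA came from whole mouse kidneys at E17.5, depleted of ribosomal RNA before sequencing. The 3 control kidneys carried floxed Brg1 alleles (Brg1 flx/flx), and the 3 mutant kidneys carried the same alleles with a Cre driven from Six2 (Six2Cre Brg1flx/flx). Where the series' design text speaks of wild type kidneys, the labels give floxed alleles to both groups. No Cre is named for the controls, so an effect of Six2Cre and one of the Brg1 deletion cannot be told apart. The study concerns the part that Brg1 plays in nephron progenitors. Brg1 is encoded by Smarca4 and drives SWI/SNF, a complex that remodels chromatin. Six2Cre acts in those progenitors, which form the nephron from podocyte to distal tubule, whereas renin cells, vascular smooth muscle, mesangium, stroma and endothelium come from other lineages.

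In the renin-angiotensin system, the protease renin cuts angiotensinogen to angiotensin I, and angiotensin-converting enzyme cuts that to angiotensin II. Aminopeptidases and other peptidases then trim the peptides, and angiotensin II acts through the type 1 and type 2 receptors. In the fetal kidney renin is made along the arterial walls and the interstitium, and later mainly by juxtaglomerular cells. Loss of renin, angiotensinogen, the converting enzyme or the type 1 receptors in mice gives kidneys with thick arterial walls and a poorly formed papilla.

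Each value is the coverage of a gene, the sequenced bases summed over it and scaled by the authors to a common library total, given in kb. Before scaling, the libraries held 726 to 1126 Mb in control and 934 to 1209 Mb in mutant. Group values are means ± SD (n = 3), and adjusted p-values are from limma on log2(value + 1) with Benjamini-Hochberg adjustment over all genes. In that fit the value is in scaled bases, not kb. Smarca4 itself was at 434, 419 and 371 kb in control and 316, 333 and 268 kb in mutant (log2 fold change -0.42, adjusted p = 0.00481). That row covers the whole gene, and the coordinates of the floxed exons were not used here. Deletion by Six2Cre is limited to the Six2 lineage, so other cells of a mutant kidney keep intact Brg1 alleles. The labels number the samples separately but give no litter, so the p-values measure the spread between these 6 libraries. In whole kidneys, fewer cells of a type and less RNA per cell cannot be told apart.

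All 8 genes passed the test, Agt, Ren1 and Agtr2 upwards and Ace, Enpep, Agtr1a, Atp6ap2 and Akr1b7 downwards. The 13203 genes all have a group mean of at least 3.40 kb, a cut that Agt reached in the mutant group only. At its control level in both groups, Agt would not be among them. Calls were common in this comparison: 46.1% of all genes passed, 21.5% higher and 24.6% lower in the mutant. The counts over gene lists further on are to be read beside these shares. For each of the 8 genes the lowest library of the higher group lay above the highest library of the other group, as it did for 56.4% of all genes. An exact two-sided permutation test on each gene gave p = 0.1, the smallest that 3 libraries against 3 allow, and p = 0.1 after adjustment over the 8. The median log2 fold change was -0.37 over the 8 genes and -0.03 over all genes. The 4 calls on Ren1, Ace, Agtr2 and Enpep held under every alternative run, and those on Agt, Agtr1a, Atp6ap2 and Akr1b7 were lost in some, given with each gene.

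**Figure D1:**
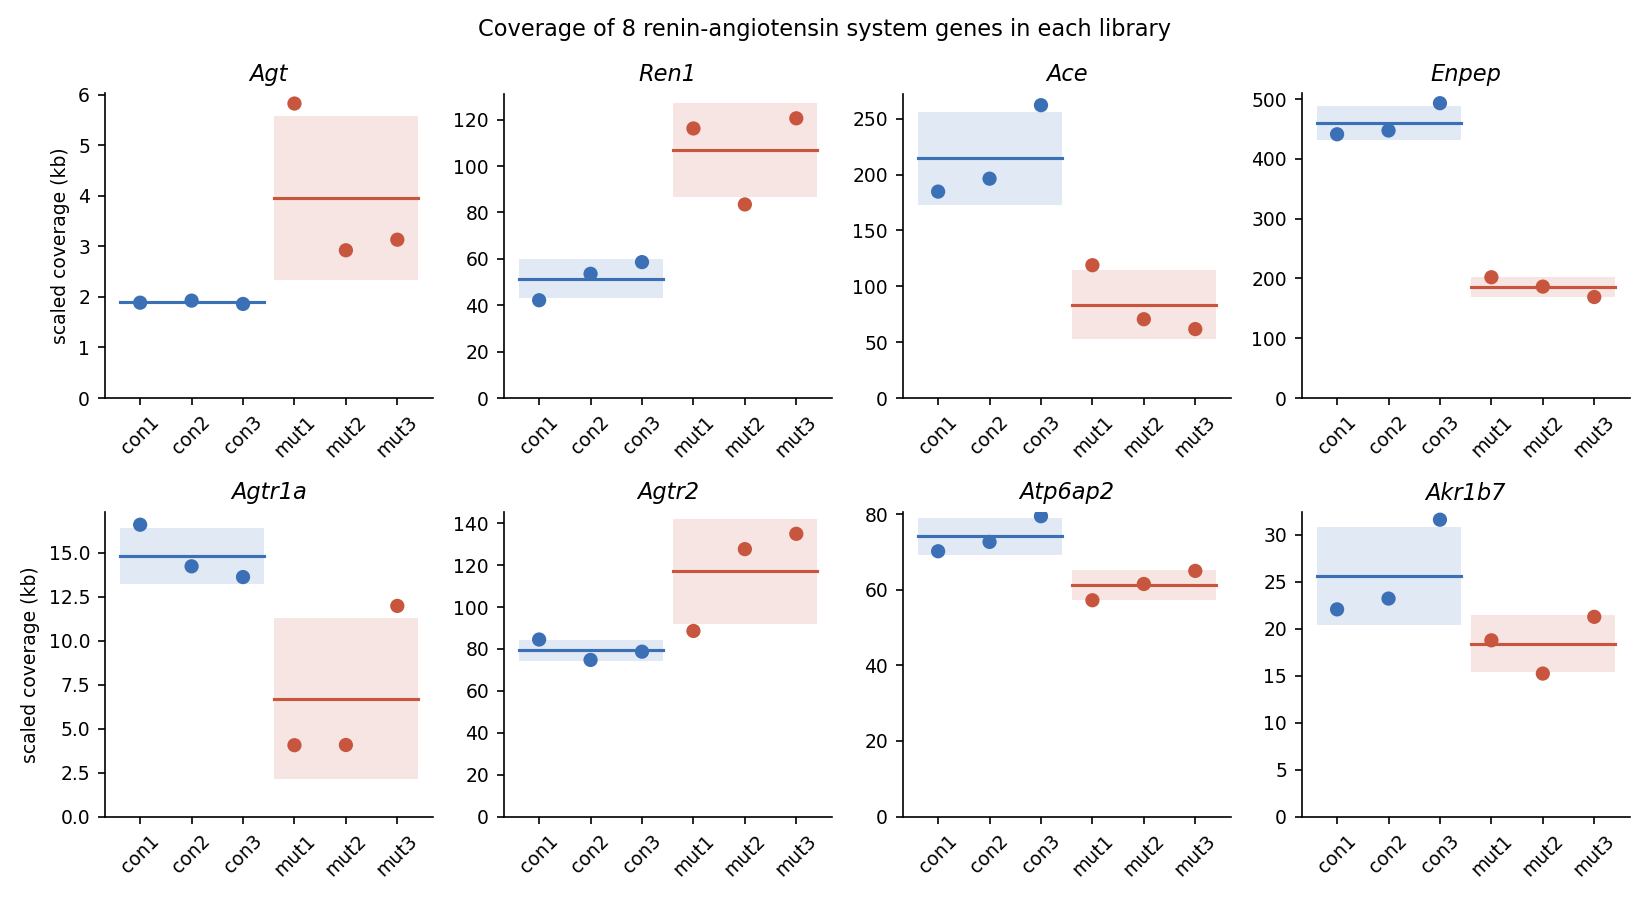
Scaled coverage in kb (y axis, from 0) of each of the 8 genes in control libraries con1 to con3 (blue) and mutant libraries mut1 to mut3 (red). Points are libraries, lines are group means and bands are ± 1 SD. The groups do not overlap for any of the 8 genes, and mut3 stands above the other mutant libraries for Agtr1a.

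Agt encodes angiotensinogen, the only substrate of renin, which in the adult comes mainly from the liver and in the kidney mainly from proximal tubule. It was barely covered in control kidneys, at 1.89, 1.93 and 1.86 kb, and reached 5.83, 2.92 and 3.13 kb in mutant kidneys. All mutant libraries lay above all controls, and mut1 was the highest. The mean went from 1.89 ± 0.0332 to 3.96 ± 1.62 kb, a log2 fold change of 0.99 (SE 0.37, 95% interval 0.18 to 1.81, adjusted p = 0.0463). Only the mutant mean reached the 3.40 kb cut, so the rise of Agt and its presence among the genes are not independent. The gene lies on the minus strand of chromosome 8 at 124556534 to 124569706 (mm10) with 1891 exonic bases. Control kidneys thus had 1.00 ± 0.0176 scaled bases per exonic base, a level under which only 4.45% of the 12461 genes with an exon length fell. Unscaled, Agt held 1402, 1460 and 2147 bases in control and 5578, 3621 and 3602 bases in mutant. The call was the least secure of the 8 genes by its adjusted p. Leaving out con1 gave an adjusted p of 0.0942, con2 0.0843, con3 0.0824, mut1 0.181 and mut3 0.0592. Over all alternatives the log2 fold change of Agt stayed between 0.67 and 1.18.

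Albumin and other liver transcripts were read beside Agt, since liver is its main adult source. Of 8 liver markers 5 had a value, of which Alb and Apob rose and Fgb, Ttr and Afp fell. Ttr, a plasma carrier protein, did not pass without con1 (adjusted p = 0.0862), and the call on Alb was lost in the 4 libraries with Xist (1.46, adjusted p = 0.0988). Alb, the main plasma protein of liver, was at 2.85, 8.98 and 1.29 kb in control and 23.5, 7.38 and 26.4 kb in mutant. Those groups overlapped, since control con2 was above mut2. Apob, the main protein of very low density lipoprotein, was at 1.53, 2.32 and 0.825 kb in control and 6.01, 4.26 and 4.27 kb in mutant (log2 fold change 1.74, adjusted p = 0.00600). As for Agt, its groups did not overlap and mut1 was the highest library. Apob, like Agt, reached the 3.40 kb cut only in mutant, and Fgb and Ttr reached it only in control. Summed, the 5 liver markers were at 154 to 228 kb in control and 79.7 to 119 kb in mutant, and most of that was Afp. Without Afp the sum was 13.6 ± 4.61 kb in control and 26.2 ± 10.7 kb in mutant, and the groups overlapped at mut2. Their part in the Agt result was not tested.

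Ren1 encodes renin, the enzyme that limits the rate of angiotensin formation. It was at 42.2, 53.6 and 58.6 kb in control kidneys and at 116, 83.5 and 121 kb in mutant kidneys. The lowest mutant library, mut2, was above the highest control. Its mean rose from 51.4 ± 8.42 to 107 ± 20.3 kb, which was 2.07-fold (log2 fold change 1.05, SE 0.15, 95% interval 0.71 to 1.39, adjusted p = 0.000243). Across the alternatives on the Ren1 row alone the change ranged from 0.91 to 1.22. The absolute log2 fold change of Ren1 was larger than that of 88.8% of all genes. Ren1 lies on the plus strand of chromosome 1 at 133350510 to 133360325 (mm10) and has 1592 exonic bases.

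The 250 bases before the RefSeq start of Ren1 are shown because regulators of renin transcription are examined further on. Sites farther from the start lie outside this window and were not searched. Sequences are from RefSeq (GRCm38.p6, the mm10 assembly), which gave a promoter for 7 of the 8 genes. The RefSeq start of Ren1 lies 164 bases downstream of the start of the GENCODE gene given above, so part of the window lies inside that gene. Ren1, chr1:133350424-133350673, plus strand, matches in capitals:
Ren1: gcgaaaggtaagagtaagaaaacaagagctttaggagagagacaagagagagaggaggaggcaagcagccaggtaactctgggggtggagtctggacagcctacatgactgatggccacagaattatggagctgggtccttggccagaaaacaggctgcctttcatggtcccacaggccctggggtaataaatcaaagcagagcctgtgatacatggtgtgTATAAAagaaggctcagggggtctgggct
All motifs were searched on both strands. A TATA box (TATAAA) lay 29 to 24 bases before the Ren1 start, and 12.4% of 32851 promoters of this length hold one. The RBP-J core (TGGGAA, in 21.6% of promoters) and the HNF1 half-site (GTTAAT, in 6.43%) had no match in the windows of the 7 genes. A match describes letters only.

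Ren2 is a near-identical copy of the renin gene that some mouse strains carry beside Ren1, and others such as C57BL/6 lack. The strain is not given in the labels. The table has a Ren2 row, named here after its values were seen, with more coverage than Ren1: 207, 180 and 184 kb in control and 338, 210 and 308 kb in mutant. All mutant libraries were above all controls, with mut2 close to the highest control. Ren2 rose by 0.56 on the log2 scale (SE 0.15, adjusted p = 0.00967). Because reads can be split between the copies, the value of either row alone is uncertain. Their sum was 249, 233 and 243 kb in control and 455, 293 and 428 kb in mutant. As a single row the sum rose 1.59-fold (log2 fold change 0.67, SE 0.14, 95% interval 0.37 to 0.97, adjusted p = 0.00211). Without mut1 that change was 0.55 (adjusted p = 0.00772) and without mut2 it was 0.87 (adjusted p = 1.63e-05). Ren1 held 16.9%, 23.0% and 24.1% of the sum in control and 25.6%, 28.5% and 28.2% in mutant. The share assigned to Ren1 was thus higher in every mutant library (exact permutation p = 0.1, the smallest possible).

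**Figure D2:**
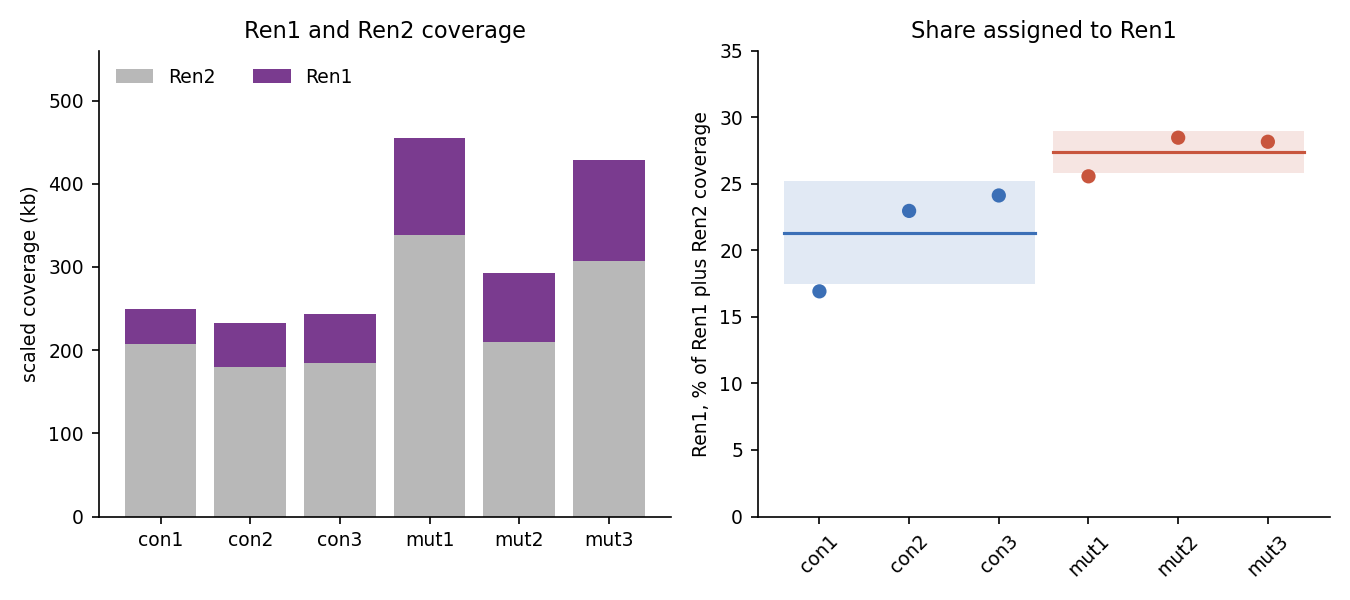
Left, scaled coverage in kb of Ren2 (grey) and Ren1 (purple), stacked, in each library, with the y axis from 0. Right, Ren1 as a percent of their sum, with group means (lines) and ± 1 SD (bands), from 16.9% in con1 to 28.5% in mut2.

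Ace encodes angiotensin-converting enzyme, which sits on endothelium and on the proximal tubule brush border. Its coverage was 185, 196 and 262 kb in control kidneys and 119, 70.5 and 61.7 kb in mutant kidneys. The groups were far apart, with mut1 the highest of the mutants. Ace fell from 214 ± 41.7 to 83.7 ± 30.8 kb, 2.64-fold lower (log2 fold change -1.40, SE 0.21, 95% interval -1.85 to -0.95, adjusted p = 0.000258). Enpep encodes aminopeptidase A, which removes the first residue of angiotensin II to give angiotensin III and is found on the brush border and on podocytes. It was at 441, 448 and 493 kb in control and 202, 186 and 169 kb in mutant. Within each group these libraries were close together, which gave Enpep the smallest SE of the 8 genes. Enpep fell from 461 ± 28.4 to 186 ± 16.6 kb, 2.48-fold lower (log2 fold change -1.31, SE 0.09, 95% interval -1.51 to -1.12, adjusted p = 1.23e-06). Both genes kept a log2 fold change below -1 in all alternatives, at -1.68 to -1.21 for Ace and -1.37 to -1.25 for Enpep.

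Ace lies on chromosome 11 at 105967945 to 105989964 (plus strand, 5102 exonic bases), and Enpep on chromosome 3 at 129269175 to 129332720 (minus strand, 4181 exonic bases). An exon of Ace overlaps the antisense gene Gm11651, and without known strand use reads of the overlap cannot be assigned. RefSeq gives Ace 2 starts, and the RefSeq start of Ace used below is the first. The other lies 7244 bases downstream of the GENCODE start, and its window had no match to the motifs searched. The 250 bases before each RefSeq start, 3 bases downstream of the GENCODE start for Ace and 29 bases upstream of it for Enpep, are shown to set these promoters of brush border enzymes beside that of renin, at chr11:105967698-105967947 (plus strand) for Ace and chr3:129332750-129332999 (minus strand) for Enpep:
Ace: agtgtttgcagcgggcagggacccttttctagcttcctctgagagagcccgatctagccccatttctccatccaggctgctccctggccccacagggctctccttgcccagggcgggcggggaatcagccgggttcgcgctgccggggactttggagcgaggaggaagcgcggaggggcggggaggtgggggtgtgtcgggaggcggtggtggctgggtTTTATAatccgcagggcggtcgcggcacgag
Enpep: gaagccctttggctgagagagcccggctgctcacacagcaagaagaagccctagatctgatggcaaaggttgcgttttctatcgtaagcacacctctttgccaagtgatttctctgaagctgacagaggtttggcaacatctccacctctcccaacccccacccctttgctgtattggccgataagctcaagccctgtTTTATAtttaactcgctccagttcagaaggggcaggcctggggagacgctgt
Capitals mark TTTATA, the TATA box letters on the opposite strand, 31 to 26 bases before the Ace start and 52 to 47 bases before that of Enpep. In the Ren1 window the TATA box letters lie on the same strand as the gene. The same holds for Agt, 30 to 25 bases before its RefSeq start, whereas the windows of Agtr2, Atp6ap2 and Akr1b7 had no match.

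Other peptidases that act on angiotensins were lower on the brush border side. Anpep, aminopeptidase N, fell from 117 ± 11.5 to 59.9 ± 6.67 kb (-0.96, adjusted p = 3.99e-05). Mme, neprilysin, fell from 292 ± 24.4 to 192 ± 6.26 kb (-0.60, adjusted p = 0.000169). Lnpep, an aminopeptidase that binds angiotensin IV, rose instead, from 64.5 ± 5.50 to 95.1 ± 13.8 kb (0.55, adjusted p = 0.00267). Of 24 listed genes of angiotensin formation, breakdown and reception outside the 8, 18 had a value, and 5 rose, 8 fell and 5 did not pass, with a median of -0.15 on the log2 scale. The deepest falls were in Lrp2 (-2.29, adjusted p = 1.91e-07), the megalin receptor that takes up filtered angiotensinogen, and in Tmem27 (-1.83, adjusted p = 1.26e-06), which encodes collectrin. Agtr1b, Mas1 and the mast cell proteases Cma1, Ctsg and Cpa3, which can also cut angiotensins, were not analysed here. Of 8 mast cell markers Kit and Hdc had a value. Hdc, histidine decarboxylase, fell (-1.09, adjusted p = 6.80e-05), and Kit did not pass (-0.23, adjusted p = 0.107).

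Listed markers of the proximal tubule fell with Ace and Enpep: 16 of 16 passed downwards, with a median log2 fold change of -1.85. Their summed coverage was 4636 to 5773 kb in control and 1338 to 1619 kb in mutant, and Anpep, Mme and Lrp2 are among them. The list was drawn up for the brush border but also holds other proximal tubule genes, such as Hnf4a. Miox (-4.49), Slc13a3 (-2.98) and Slc5a12 (-2.81) reached the 3.40 kb cut only in control. The deep falls of these genes and their presence here are therefore not independent. Endothelial markers, the other site of Ace, had no common direction, as 3 of 13 rose, 3 fell and 7 did not pass. Summed, they were at 1471 to 1543 kb in control and 1606 to 1654 kb in mutant. Ehd3, a marker of glomerular endothelium, had the deepest endothelial fall, at -0.94 (adjusted p = 9.64e-05). The part of these cell types in the fall of Ace and Enpep was not tested. Within libraries, the falls were unequal. Per exonic base, Enpep over Anpep went from 3.60 ± 0.132 to 2.82 ± 0.112 without overlap.

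**Figure D3:**
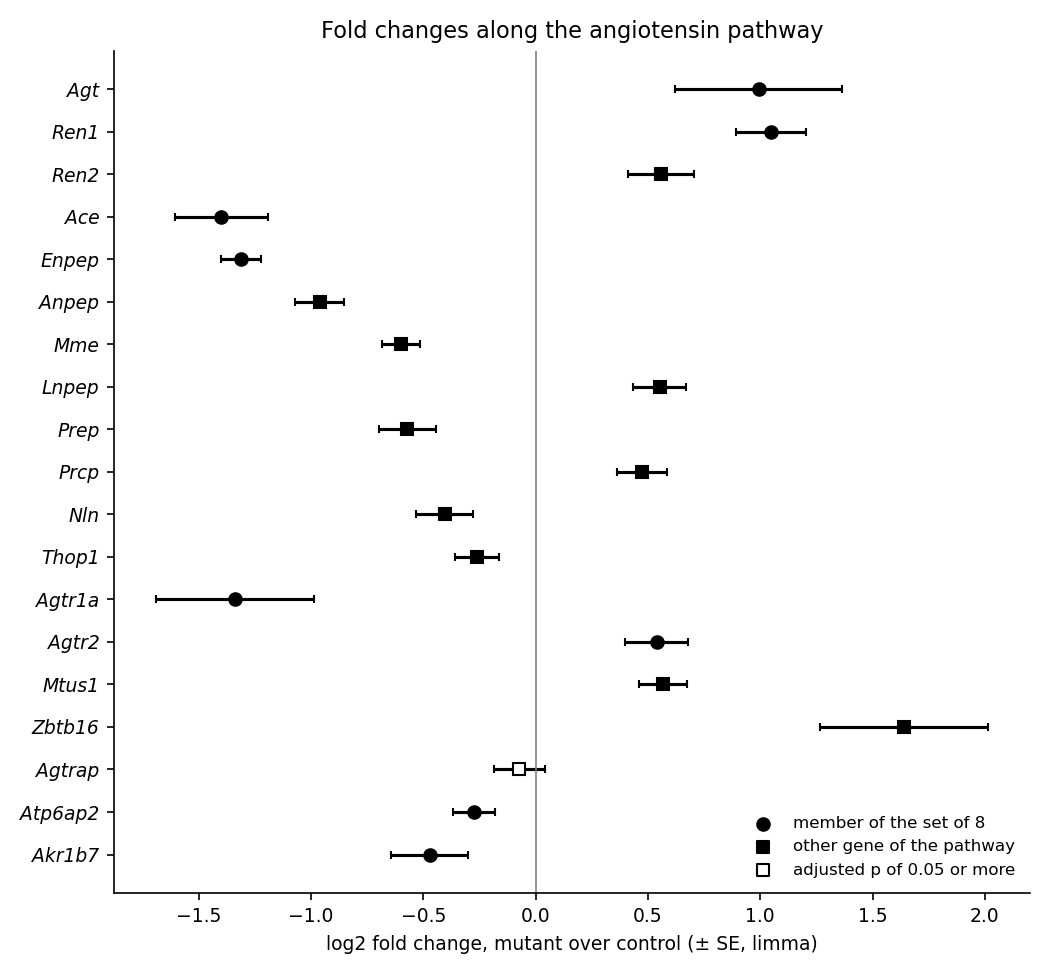
Log2 fold change, mutant over control, with its SE from limma, for the 8 genes (circles) and other genes of the pathway (squares). Open symbols did not pass, which here is Agtrap (-0.07, adjusted p = 0.635). Agt, Ren1, Ren2 and Agtr2 lie right of 0, and Ace, Enpep and Agtr1a lie near or below -1.3.

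Agtr1a encodes the main type 1 angiotensin receptor of the mouse, which drives vasoconstriction and sodium uptake. It was at 16.6, 14.2 and 13.6 kb in control kidneys and at 4.06, 4.07 and 12.0 kb in mutant kidneys. In mut1 and mut2 it was far below control, whereas mut3 lay just under con3. The mean fell from 14.8 ± 1.57 to 6.70 ± 4.57 kb (log2 fold change -1.34, SE 0.35, 95% interval -2.11 to -0.57, adjusted p = 0.0089). Without mut3 the change was -1.86 (adjusted p = 0.000117). The direction of Agtr1a held in every alternative, at -1.86 to -1.08, and its call was lost only in the 4 libraries with Xist (-1.14, adjusted p = 0.0635). The gene lies on the plus strand of chromosome 13 at 30336441 to 30382867, with 2199 exonic bases.

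Agtr2 encodes the type 2 receptor, which is abundant in fetal mesenchyme and often opposes the type 1 receptor. Its coverage was 84.5, 74.8 and 78.7 kb in control and 88.6, 128 and 135 kb in mutant. The lowest mutant library, mut1, was only just above con1. Agtr2 rose from 79.3 ± 4.91 to 117 ± 24.9 kb, 1.45-fold (log2 fold change 0.54, SE 0.14, 95% interval 0.23 to 0.85, adjusted p = 0.0087). It lies on the X chromosome at 21484544 to 21489164 (plus strand, 3283 exonic bases). The receptors thus moved in opposite directions. Per exonic base, Agtr2 over Agtr1a was 3.41, 3.52 and 3.87 in control and 14.6, 21.02 and 7.55 in mutant. The lowest mutant ratio, in mut3, was above the highest control ratio (exact permutation p = 0.1, the smallest possible).

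Of 3 listed genes whose products bind these receptors, Mtus1 and Zbtb16 passed the test and Agtrap did not. Mtus1, which encodes an Agtr2-interacting protein, rose from 72.9 ± 7.70 to 108 ± 10.2 kb (log2 fold change 0.57, adjusted p = 0.00123). Zbtb16, a zinc finger protein that also binds Agtr2, rose from 2.65 ± 1.40 to 7.60 ± 1.54 kb (1.64, adjusted p = 0.00416). Zbtb16 reached the 3.40 kb cut only in mutant. Agtrap, which drives internalisation of the type 1 receptor, was at 46.0 ± 3.33 and 43.9 ± 5.001 kb (-0.07, adjusted p = 0.635). Among 16 listed genes of receptor signalling, those 3 included, 7 rose, 2 fell and 7 did not pass, with a median of 0.21. Rgs2, which damps Gq signalling, rose (0.62, adjusted p = 0.00294). Of the NADPH oxidase subunits listed, Cyba (-0.75, adjusted p = 0.00368) and Nox4 (-0.75, adjusted p = 0.00439) fell, and Cybb rose (0.87, adjusted p = 0.0488). The adjusted p of Cybb was 0.0838 without con1, 0.177 without con2, 0.0772 without mut1, 0.0648 without mut2 and 0.152 without mut3. Stromal markers, read because Agtr2 is made in mesenchyme, rose in 15 of 15 cases with a median of 1.33, from a summed 3926 to 4059 kb in control to 8085 to 10050 kb in mutant. Their part in the Agtr2 result was not tested.

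Atp6ap2 encodes the (pro)renin receptor, which is also an accessory subunit of the vacuolar proton ATPase and is made in most cells. It was at 70.2, 72.6 and 79.4 kb in control and 57.2, 61.5 and 65.0 kb in mutant. The groups were separate but close. The mean fell from 74.1 ± 4.80 to 61.2 ± 3.89 kb, the smallest change of the 8 genes (log2 fold change -0.27, SE 0.10, 95% interval -0.48 to -0.07, adjusted p = 0.034). Leaving out con1 gave an adjusted p of 0.0538, con2 0.0793, con3 0.123, mut1 0.0742 and mut2 0.0579. Atp6ap2 lies on the X chromosome at 12587801 to 12617049 (plus strand, 2324 exonic bases).

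Most subunits of the vacuolar proton ATPase moved the same way as Atp6ap2. Of 21 listed subunits 19 had a value, and 2 rose, 11 fell and 6 did not pass, with a median of -0.38. The subunits made mainly in intercalated cells and proximal tubule fell the most, namely Atp6v1c2 (-2.47, adjusted p = 0.00222), Atp6v0d2 (-1.62, adjusted p = 0.00621), Atp6v0a4 (-1.44, adjusted p = 9.93e-06) and Atp6v1b1 (-1.32, adjusted p = 1.05e-05). Atp6v1c2 and Atp6v0d2 reached the 3.40 kb cut only in control, with mutant means of 0.678 and 1.35 kb. Their deep falls and their presence among the genes are therefore not independent. Atp6v0a4 and Atp6v1b1 were above the cut in both groups. Atp6v1a, the catalytic subunit found in all cells, fell from 411 ± 43.4 to 221 ± 7.26 kb (-0.89, adjusted p = 1.61e-05). The other accessory subunit, Atp6ap1, did not pass (-0.04, adjusted p = 0.702). The rises, in Atp6v0d1 (0.28, adjusted p = 0.0165) and Atp6v0a1 (0.34, adjusted p = 0.033), were small. Without con3 the adjusted p of Atp6v0d1 was 0.0544. That of Atp6v0a1 was 0.0893 without con1, 0.0972 without con2, 0.101 without mut1 and 0.0822 without mut2.

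Akr1b7 encodes an aldo-keto reductase that marks renin cells in the mouse kidney, and the adrenal cortex. Unlike Ren1 it was lower in mutant kidneys, at 18.8, 15.2 and 21.3 kb against 22.1, 23.2 and 31.6 kb in control. The highest mutant library, mut3, lay just under con1. The mean fell from 25.6 ± 5.22 to 18.4 ± 3.04 kb (log2 fold change -0.47, SE 0.17, 95% interval -0.85 to -0.10, adjusted p = 0.0417). Without con2 the adjusted p was 0.0594, without con3 0.176, without mut1 0.0660 and without mut2 0.132. Per exonic base, Akr1b7 over Ren1 was 0.651, 0.539 and 0.671 in control and 0.201, 0.227 and 0.219 in mutant. That ratio was tight within each group and went from 0.620 ± 0.0711 to 0.216 ± 0.0134 (exact permutation p = 0.1, the smallest possible). It uses the Ren1 row without Ren2, and that row held a mean 21.3% of their sum in control and 27.4% in mutant. Akr1b7 lies on chromosome 6 at 34412334 to 34423142 (plus strand, 1281 exonic bases), where the pseudogene Gm13857 overlaps an exon on the other strand. Its relatives differed: Akr1b3, aldose reductase, rose from 14.3 ± 1.74 to 36.9 ± 4.78 kb (1.36, adjusted p = 2.21e-05). Akr1b8 rose by 0.58 (adjusted p = 0.0198, 0.0772 without con2 and 0.0748 without mut3). Akr1b10 was at -0.40 (adjusted p = 0.218).

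Adrenal tissue left on a kidney would add Akr1b7 RNA, so adrenal cortex markers were read. Of 11 listed, Akr1b7 and Fdx1 had a value, and the steroidogenic genes Star, Cyp11a1, Cyp11b1, Cyp21a1 and Nr5a1 were not analysed here. Every gene with a value has a group mean of at least 3.40 kb, but why a listed gene has none was not tested. The amount of adrenal tissue can therefore not be judged from the genes without a value. Fdx1, a ferredoxin made in most tissues, fell by 0.77 on the log2 scale (adjusted p = 0.00547).

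Other markers of renin cells did not share 1 direction. Of 16 listed, Ren1 and Akr1b7 included, 15 had a value, 6 rose, 2 fell and 7 did not pass, with a median of 0.43. Foxd1, which marks the stromal progenitors that give rise to renin cells, rose by 1.42 (adjusted p = 2.17e-05). Gucy1a3, a subunit of soluble guanylate cyclase, rose from 213 ± 7.30 to 405 ± 26.8 kb (0.92, adjusted p = 6.17e-06). Adcy5, a cyclase that makes the cAMP needed for renin release, rose from 15.9 ± 1.59 to 27.2 ± 3.16 kb (0.78, adjusted p = 0.000933). Aldh1a7 fell by 1.04 on the log2 scale (adjusted p = 0.00142). The connexins were unlike each other: Gja4 rose from 22.1 ± 2.52 to 32.8 ± 3.71 kb (0.57, adjusted p = 0.00474), whereas Gja5, which couples renin cells, was at 38.6 ± 1.71 and 32.5 ± 2.06 kb (-0.25, adjusted p = 0.074). Markers of vascular smooth muscle, pericytes and mesangium rose in 9 of 15 cases, fell in 1 and did not pass in 5. Their summed level was 1645 to 1760 kb in control and 2182 to 2542 kb in mutant. The largest rises on that list were in Myocd, a smooth muscle coactivator, at 2.43 (adjusted p = 3.84e-07) and Myh11, smooth muscle myosin, at 2.03 (adjusted p = 4.86e-05). Lmod1, which also rose (1.72), reached the 3.40 kb cut only in mutant. Smtn (0.16, adjusted p = 0.219) and Des (0.23, adjusted p = 0.277) did not pass, and the mesangial integrin Itga8 fell (-0.77, adjusted p = 1.72e-05). The part of such cells in the rise of Ren1 was not tested.

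Regulators of renin transcription and release were mostly higher or not called. Of 29 listed 26 had a value, and 13 rose, 3 fell and 10 did not pass, with a median of 0.37. Ednra, the endothelin A receptor, rose from 54.9 ± 3.004 to 148 ± 2.30 kb (1.43, adjusted p = 5.75e-07). The nuclear factors Nfix (1.23, adjusted p = 2.87e-05) and Nfia (0.90, adjusted p = 2.26e-05) and the orphan receptor Nr2f2 (0.86, adjusted p = 8.14e-06) also rose. Rbpj, the Notch effector whose core motif was searched in the promoters and which was named for that reason, rose from 48.1 ± 5.51 to 67.8 ± 7.60 kb (0.50, adjusted p = 0.00523). The genes of the list that fell were Vdr, Casr and Nr2f6. Vdr, the vitamin D receptor, fell from 47.3 ± 2.41 to 18.0 ± 4.11 kb (-1.41, adjusted p = 2.63e-05). Casr, the calcium-sensing receptor, fell from 20.7 ± 4.35 to 10.6 ± 1.82 kb (-0.96, adjusted p = 0.00154), and Nr2f6 fell by 0.46 on the log2 scale (adjusted p = 0.00407). The macula densa genes Ptgs2 (-0.09, adjusted p = 0.725) and Nos1 (0.39, adjusted p = 0.308) and the cAMP effector Creb1 (0.02, adjusted p = 0.906) did not pass. Nor did Adora1, the adenosine A1 receptor (0.02, adjusted p = 0.903), or Npr1, a natriuretic peptide receptor (-0.20, adjusted p = 0.178).

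Downstream of angiotensin, of 10 listed genes of the aldosterone response 3 rose, 2 fell and 5 did not pass, with a median of -0.06. Nr3c2, the mineralocorticoid receptor, fell from 14.1 ± 1.22 to 8.09 ± 1.05 kb (-0.81, adjusted p = 0.00265), as did the kinase Sgk1 (-0.41, adjusted p = 0.00798). Scnn1b, a subunit of the epithelial sodium channel, and Tsc22d3 both rose by 0.58 on the log2 scale (adjusted p = 0.00206 and 0.00125). Papilla and pelvis genes, listed because these parts form poorly without angiotensin, rose in 7 of 12 cases, fell in 2 and did not pass in 3. The largest of the 7 rises were in Tbx18 (2.22, adjusted p = 1.60e-05), Tshz3 (1.82, adjusted p = 5.75e-07), Shh (1.54, adjusted p = 0.000964) and Upk3a (1.54, adjusted p = 8.28e-05). Of these, Shh reached the 3.40 kb cut only in mutant. Umod (-1.28, adjusted p = 2.18e-05) and Aqp2 (-1.95, adjusted p = 4.11e-05) were the genes that fell.

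**Figure D4:**
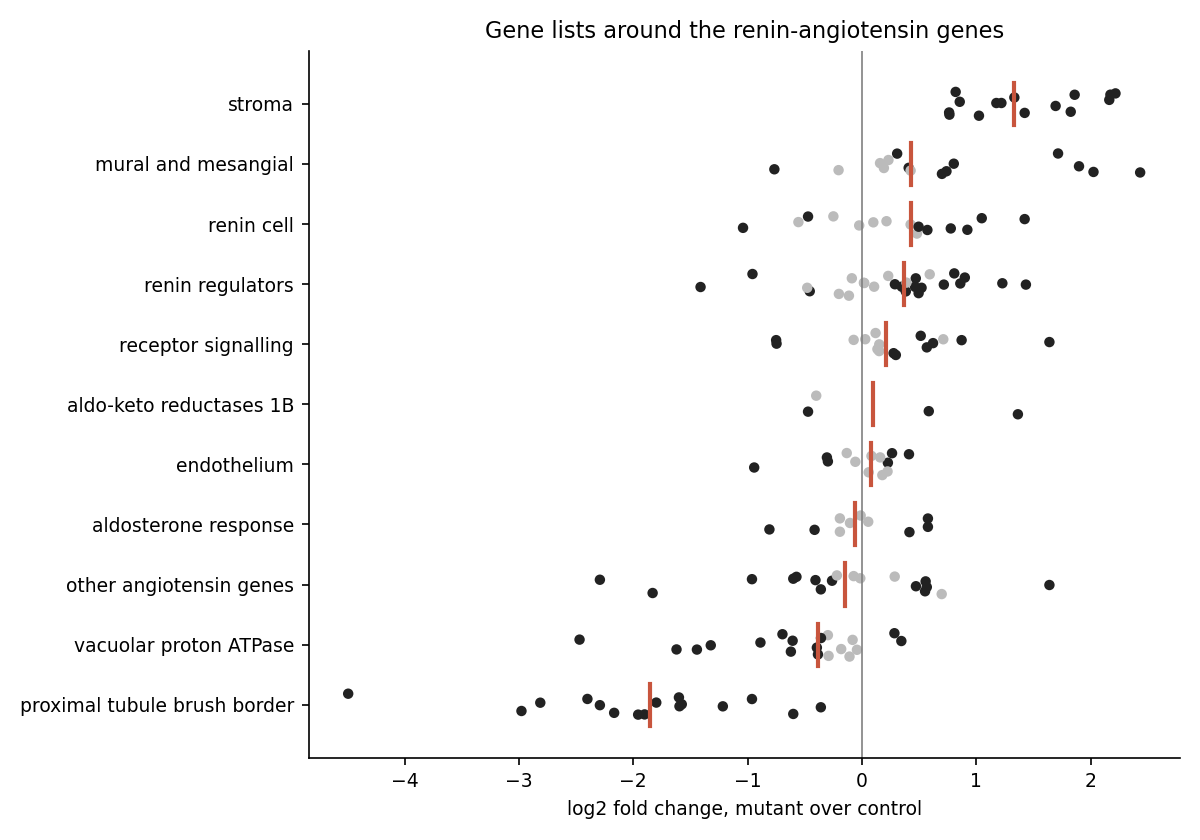
Log2 fold changes, mutant over control, of the genes of each list (points, black where the test was passed and grey where not), with the list median as a red bar. Vertical scatter within a list has no meaning. The proximal tubule brush border list lies wholly left of 0 (median -1.85) and the stroma list wholly right of it (median 1.33). The former also holds proximal tubule genes outside the brush border.

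Levels per exonic base allow the genes to be compared, with Ren1 given here for its own row, without Ren2. In control kidneys Enpep stood highest, at 110 ± 6.79 scaled bases per exonic base. It was followed by Ace (42.0 ± 8.18), Ren1 (32.3 ± 5.29), Atp6ap2 (31.9 ± 2.07), Agtr2 (24.2 ± 1.49), Akr1b7 (20.0 ± 4.07), Agtr1a (6.74 ± 0.715) and Agt. The libraries of Ace and Ren1, of Ren1 and Atp6ap2 and of Agtr2 and Akr1b7 overlapped, so these neighbours did not separate. In mutant kidneys the Ren1 row stood highest, at 67.1 ± 12.7, above Enpep (44.4 ± 3.96), Agtr2 (35.7 ± 7.60), Atp6ap2 (26.3 ± 1.67), Ace (16.4 ± 6.04), Akr1b7 (14.4 ± 2.37), Agtr1a (3.05 ± 2.08) and Agt (2.10 ± 0.857). With Ren2 added, over the exonic length of Ren1, renin was at 152 ± 5.04 in control and 246 ± 54.4 in mutant, above Enpep in both groups. The change of rank between Ren1 and Enpep therefore holds for the Ren1 row alone. In mutant kidneys Enpep with Agtr2, Agtr2 with Atp6ap2, Ace with Akr1b7 and Agtr1a with Agt overlapped. Against the 12461 genes with an exon length, Ren1 was above 83.2% in control and 94.3% in mutant, and Ace above 88.2% and 65.5%. The ratio of Ren1 to its substrate Agt did not separate the groups, at 26.5, 33.0 and 37.4 in control and 23.7, 33.9 and 45.7 in mutant (exact permutation p = 0.9). The ratios were chosen after the values were seen. Of the 5 compared, the share of Ren1 included, the other 4 each had an exact permutation p of 0.125 after Benjamini-Hochberg adjustment.

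**Figure D5:**
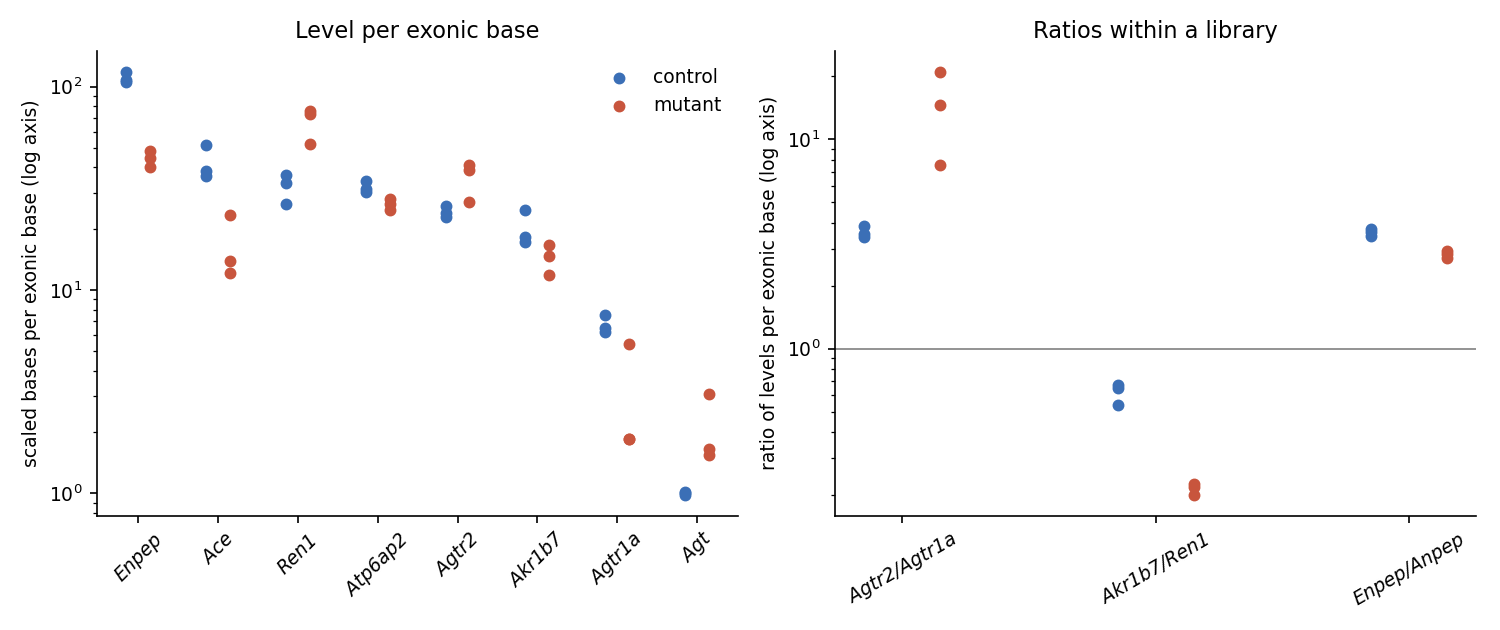
Left, scaled bases per exonic base (log axis) of the 8 genes in control (blue) and mutant (red) libraries, ordered by the control mean. Right, ratios of these levels within each library (log axis), with a line at 1. The Ren1 row, without Ren2, lies below Enpep in control and above it in mutant libraries, and Agtr2 over Agtr1a goes from 3.60 ± 0.241 to 14.4 ± 6.74.

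Sex differed between the libraries, and the split by sex was read from Xist and Y-linked genes. Control con3 and mutant mut1 were male and the other 4 libraries female, so each sex gives a value. The mutant minus control difference in log2 was alike in both sexes for Ren1 (1.08 in females and 0.99 in the male pair) and Enpep (-1.32 and -1.29). Ace (-1.53 and -1.14) and Agtr1a (-1.14 and -1.75) also fell in both. Agt differed by 0.67 in females and 1.65 in the male pair, and Agtr2 by 0.72 and 0.17. The smaller changes were -0.18 and -0.47 for Atp6ap2 and -0.33 and -0.75 for Akr1b7. The male values rest on 1 library a group, and the differences between the sexes were not tested. Small nucleolar RNA genes, 92 rows, took 1.68% to 2.31% of coverage in control libraries and 0.299% to 0.630% in mutant libraries, a difference in library content whose part in these results was not tested.

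Genes with the profile most like that of each of the 8 were found by the root mean square difference in centred log2 values over the 6 libraries. For Ren1 they were Gdf10 (0.0498), Prkar1b (0.0973) and Cbx6 (0.0980). For Ace they were Cgref1 (0.0946), Slc6a4 (0.123) and Slc22a12 (0.129). Enpep was nearest to Col4a3 (0.0569), Pde4c (0.0608) and Folr1 (0.0688). Agtr2 lay near Gpr126 (0.0758) and Rian (0.0773), and Agt near Prnd (0.110), Pik3ap1 (0.124) and Fbxo27 (0.128). Atp6ap2 had the closest neighbours, Usp12 (0.0225), Pgam1 (0.0230) and Mtmr1 (0.0304). Akr1b7 was nearest to Maff (0.0768), Aqp1 (0.0948) and Hpn (0.0962). Agtr1a had the most distant ones, Rpl35a (0.211), Dnph1 (0.296) and Snora61 (0.315). These distances describe 6 libraries of 2 groups and carry no test.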

How the data were processed

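Per the labels, total RNA of E17.5 kidneys was depleted of ribosomal RNA and made into Ion Total RNA-seq libraries. The submitters' processing notes name mm10 and bedtools, and the sources used here give no aligner, annotation or use of strand. The deposited signal is base coverage per gene, scaled by the authors to 976 Mb per library and not divided by length. It holds no read counts, so no count model was used and the read number is unknown. The authors' deposited table also gives a ratio, a p-value and a q-value per gene. There the q-value was 0.0505 for Agt and 0.0567 for Akr1b7, and the ratio of Ren1 was 2.08.

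Library columns name a group, not a sample, and replicate numbers are not shared, so nothing was paired. Values in scaled bases were tested as log2(value + 1) with limma 3.58.1 in R 4.3.3 (empirical Bayes with trend, two-sided). Benjamini-Hochberg adjustment was over 13203 genes with a threshold of 0.05. A filter for values above 1 scaled base in at least 3 libraries removed 0 genes. Genes below the 3.40 kb cut in either group are present through the other group alone. The script was tested on simulated data. Exon lengths and positions are from GENCODE M21 on mm10. The alternatives were other scalings, pseudocounts, filters, weights, sex as a term and leaving out libraries. The 8 genes and the lists were chosen with earlier results of these data known. Named genes were the 8, up to 4 in each direction with the largest change per list, and the 3 nearest profiles. Ren2, its sum with Ren1 and the ratios were added after values were seen, as were Gja4, Gja5, Atp6v1a, Atp6ap1, Akr1b10, Agtrap, Rbpj, Creb1, Ptgs2, Nos1, Smtn, Des, Adora1 and Npr1. Some genes that these rules name are not reported here.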

Additional observations from a re-analysis of the deposited data

How the results depend on the processing

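All 8 genes kept their direction under every alternative run, and 4 (Ren1, Ace, Agtr2 and Enpep) also kept their call, with highest adjusted p-values of 0.00508, 0.00625, 0.0426 and 0.000358 in limma. The other calls were lost as follows, with log2 fold changes. With quantile normalization Agt was at 0.93, Akr1b7 at -0.39 and Atp6ap2 at -0.23, which left 5 of 8 genes called. Array weights gave 0.87 for Agt and -0.38 for Akr1b7, and trimmed-mean scaling gave -0.44 for Akr1b7. A fit without the mean-variance trend gave -0.47 for Akr1b7 and -0.27 for Atp6ap2. In only the 4 libraries with Xist, an alternative added after the data were seen, Agt was at 0.67, Agtr1a at -1.14, Akr1b7 at -0.33 and Atp6ap2 at -0.18, and 4 genes were called, from fewer libraries. The cause of the losses was not tested under any alternative. Leaving out each library in turn gave 0.68 to 1.18 for Agt, -0.58 to -0.31 for Akr1b7 and -0.32 to -0.22 for Atp6ap2, with 5 to 7 genes called. The Ren2 call was lost only in the 4 libraries with Xist (0.40, adjusted p = 0.0797). Over all genes 4713 to 6455 were called, and scaling moved their median by at most 0.04 on the log2 scale. Agt and Agtr1a lie below the lower quartile of coverage, so the alternative above it gave them no value. No paired analysis was possible because the groups share no replicate number. Depth limits Agt most, at about 1.00 scaled base per exonic base in control.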
